A study of Mus musculus with 29 samples.

Results

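Day 8 of growth-factor withdrawal was compared with day 4 in cultured mouse nephron progenitor cells, using 8 of the 29 RNA sequencing libraries of the series. The 8 are the 4 libraries labelled 8D in which Heparin, Y27632, BMP7 or CHIR was missing from the medium, and the 4 libraries labelled 4D that lack the same component, so each day 8 library has 1 day 4 partner. The library grown for 8 days without LIF has no day 4 partner. It entered no test, and its values stand beside the others as a description.

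All cells carried the Six2-GCE allele, in which the Six2 gene drives GFP fused to an inducible form of Cre, on a C57BL/6 and 129 hybrid background, and the age label of the cultures is E13.5. They grew as 3D aggregates in a medium named NPSR and were passaged every 4 days, with fresh medium every 2 days. Heparin helps fibroblast growth factors to engage their receptors, Y27632 inhibits the ROCK kinases, BMP7 is a bone morphogenetic protein, and CHIR inhibits GSK3 and so stabilises beta-catenin. The labels name total RNA for these libraries and give 1 library per component and day. They do not say whether the libraries came from separate cultures, so the 4 pairs are replicates of the time step across 4 different media, and p-values measure the spread between these libraries. No withdrawal library was grown in complete medium, so days without a component and days in culture cannot be told apart.

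Nephron progenitor cells of the cap mesenchyme express the transcription factors Six2 and Osr1 and either renew themselves or differentiate into the epithelium of the nephron. In the embryonic kidney FGF and BMP7 signals maintain the progenitors, and Wnt signalling through beta-catenin takes part in both renewal and differentiation, with Wnt4 among the first genes of the differentiating state. Culture media for these cells therefore combine agents that act on the FGF, BMP, Wnt, LIF and ROCK pathways.

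The authors deposited levels as RPKM, which scales the reads of a gene by its length and by the mapped reads of the library. Depth estimated from the spacing of low values was 14.2 to 17.3 M reads in 7 of the 8 libraries and 6.82 M reads in the Heparin day 4 library. The sum of all RPKM values was lower at day 8 in each of the 4 pairs, for example 587650 at day 4 and 548604 at day 8 without CHIR. Cap mesenchyme markers were present, with a summed RPKM of 30 genes of 913 to 1499 at day 4 and 788 to 1268 at day 8, although Pax2 lay between 0 and 1.06 at day 4 and Fgf20 was listed at 0 in all 8 libraries. Erythroid markers summed to 0.099 to 0.737 at day 4 and 0.285 to 0.64 at day 8. Macrophage markers summed to 10.6 to 17.9 at day 4 and 14.4 to 18 at day 8, and C1qa, C1qc, Ptprc and Cx3cr1 were listed at 0 in all 8 libraries. The tubule genes Slc34a1, Umod, Slc12a1, Slc12a3 and Hnf4a were also listed at 0 in all 8. The tubule list of 16 genes nevertheless summed to 377.5 to 1645 at day 4 and 369.3 to 2206 at day 8. In it Spp1 was at 302 to 1625 at day 4 and 314 to 2169 at day 8. Atp1b1 was at 5.67 to 74.3 at day 4 and 3.96 to 54 at day 8. Renal stroma markers, which the cultured cells share in part, summed to 1045 to 1764 at day 4 and 864 to 2075 at day 8, and their part in the results below was not tested.

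Few genes passed the test of the time step. An RPKM of 1 or more in 2 or more of the 8 libraries was reached by 12094 genes. Of these, 4 had an adjusted p under 0.05 (0.0331% of the genes tested), in limma on log2(RPKM + 1) with the component as a block and Benjamini-Hochberg adjustment. Rassf7 and Banp fell (2 genes, 0.0165%), and the microRNA genes Mir6910 and Mir7019 rose from a listed value of 0 (2 genes, 0.0165%). These 2 microRNA genes met the RPKM limit through day 8 alone, so their calls are a description. Without adjustment 2935 genes had a p under 0.05 (24.3%), and 965 genes had an adjusted p under 0.10 (7.98%), 387 higher and 578 lower at day 8. By sign alone 2011 genes were higher at day 8 in all 4 pairs (16.6%) and 2186 were lower in all 4 (18.1%). For 502 genes every day 8 library lay above every day 4 library (4.15%), and for 554 every day 8 library lay below (4.58%).

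The number of calls depended on which genes entered the adjustment. When a gene had to reach an RPKM of 1 in all 4 libraries of one day, 390 of 10774 genes passed at 0.05 (3.62%), 126 higher (1.17%) and 264 lower (2.45%). When 171 symbols of short RNAs were left out, 305 of 11923 passed (2.56%), 94 higher (0.788%) and 211 lower (1.77%). With trimmed-mean factors between libraries 41 genes passed, 6 higher and 35 lower, and the median over all genes moved to -0.05. The values of the genes are the same in the counts of 4, 390 and 305, and only the gene set over which limma estimated the variance trend and adjusted p was different. Adjusted p-values from the smaller gene set are given below as the stricter filter.

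The 2 called microRNA genes are shown with their mature sequences, since such short RNAs reach a large RPKM from few reads. Mir6910 lies on chromosome 10 at 79862587 to 79862652, plus strand, overlapping Ptbp1 and Plppr3, and Mir7019 on chromosome 4 at 138316132 to 138316200, minus strand, overlapping Pink1 (RefSeq, GRCm38.p6). Their hairpins are 66 and 69 bases long. Mir214 on chromosome 1, whose RPKM was lower at day 8 in all 4 pairs, is shown with them. Capitals mark the seed, bases 2 to 8, and no 2 of these 6 RNAs share one.
miR-6910-5p: uGGGGGUAgggcaccagugggca
miR-6910-3p: uCAUGGUUuccacccuuugucc
miR-7019-5p: aUCUGGGAggggcugucaggagu
miR-7019-3p: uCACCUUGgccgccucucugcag
miR-214-5p: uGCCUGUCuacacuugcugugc
miR-214-3p: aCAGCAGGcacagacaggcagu

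Mir6910 was listed at 0 in all 4 day 4 libraries and at RPKM values of 267 without Heparin, 299 without Y27632, 522 without BMP7 and 571 without CHIR at day 8. Mir7019 was also listed at 0 in all 4 day 4 libraries and at 201, 225, 392 and 214 in the same order at day 8. Both were called higher in the limma fit, with an adjusted p of 0.000259 each. They met the filter on low values through day 8 alone and had no spread at day 4, so this p gives no support for a rise. The day 8 values came in steps after scaling by the estimated depth. Mir6910 stood at 1, 1, 2 and 2 times the value of the Heparin library and Mir7019 at 1, 1, 2 and 1 times. Without LIF at day 8 the steps were 4 and 1. A step of 1 is the smallest value above 0 that these genes had in the 9 withdrawal libraries. Among the other 20 libraries of the series Mir6910 was listed at 0 in 12 and Mir7019 in 17.

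Rassf7, a coiled-coil member of the RASSF family, is on chromosome 7 at 148401759 to 148404557, plus strand (mm9, GENCODE M1). Its RPKM at day 4 was 22.1 without Heparin, 20.3 without Y27632, 8.88 without BMP7 and 14.6 without CHIR. At day 8 it was 8.35, 8.26, 3.41 and 4.81. Every day 8 library lay below every day 4 library. Rassf7 fell by 1.27 on the log2(RPKM + 1) scale (SE 0.0837, n = 4 pairs, limma adjusted p = 0.038). The library without LIF had 5.08 at day 8.

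Banp, a nuclear protein that binds an unmethylated palindrome with the core CTCGCGAG at CpG island promoters, is on chromosome 8 at 124473650 to 124553158, plus strand. Its RPKM was 13.1, 13.7, 15 and 13.9 at day 4 without Heparin, Y27632, BMP7 and CHIR, and 4.77, 5.27, 6 and 6.24 at day 8. The 4 libraries of each day were close to each other and the days did not overlap. Banp fell by 1.19 (SE 0.0825, n = 4 pairs, limma adjusted p = 0.0387), and the library without LIF had 5.81. The mm9 annotation has the predicted gene Gm20388 on the same strand and Gm17709 on the other strand over this locus, and the counting of shared reads is not given in the sources used here. Banp and Rassf7 were lower in every pair, so leaving out 1 of the 4 pairs could not change their direction. In these fits the log2 differences were -1.24 to -1.15 and -1.31 to -1.22. Neither gene passed, with limma adjusted p from 0.0684 to 0.358.

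The core CTCGCGAG, searched on both strands from 250 bases before to 50 after each RefSeq start, was in the promoters of 195 of 9029 tested genes with a promoter sequence (2.16%). Of these 195 genes 56 were higher at day 8 in all 4 pairs (28.7%) and 24 were lower in all 4 (12.3%). Of the 8834 genes without it, 1483 were higher in all 4 (16.8%) and 1671 were lower (18.9%). The median difference was 0.07 with the core and 0.001 without. This motif was looked up after the values of Banp were seen. The genes with it had a median transcript GC content of 47.1%, against 51% for the genes without, and GC content moved with the day difference, as described further on, so its part in these shares was not tested.

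**Figure D1:**
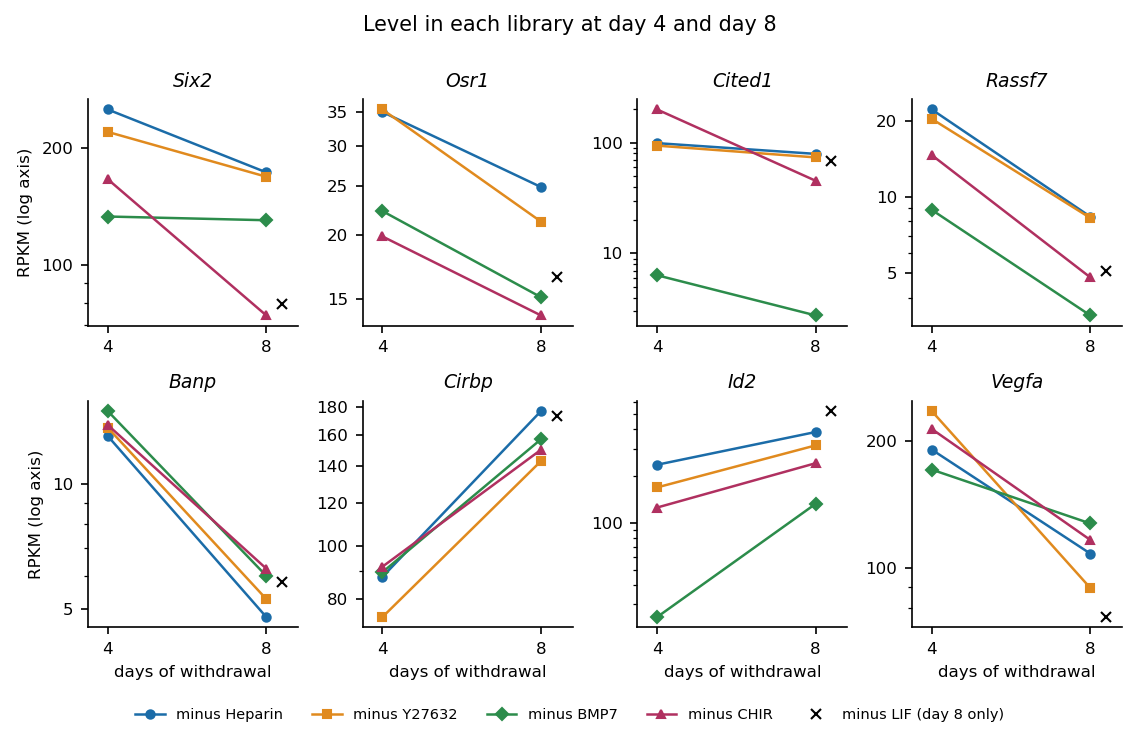
RPKM (log axis) of 8 genes in each library against days of withdrawal, with a line joining the day 4 and day 8 libraries that lack the same component and a cross for the day 8 library without LIF. Rassf7 and Banp were lower and Cirbp was higher at day 8 in all 4 pairs with no overlap between days, while the Six2 line without BMP7 is nearly flat, from 133 to 130.

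The marker of the cells, Six2, had RPKM values of 251 without Heparin, 220 without Y27632, 133 without BMP7 and 166 without CHIR at day 4. At day 8 it had 173, 168, 130 and 74.2. Every pair was lower at day 8, but the days overlapped and the pair without BMP7 differed by only 0.03 on the log2 scale. The mean difference was -0.52 (SE 0.182, n = 4 pairs), and Six2 did not pass (limma adjusted p = 0.164). The exact sign-flip test over 4 pairs gave p = 0.125 (two-sided), the smallest it can give. Without LIF, Six2 was at 79.6 at day 8. In bulk libraries fewer cells with a transcript and less transcript per cell cannot be told apart.

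Osr1, a zinc-finger factor of the same progenitors, was more even across media. Its RPKM was 35, 35.4, 22.3 and 19.9 at day 4 without Heparin, Y27632, BMP7 and CHIR, and 24.9, 21.3, 15.1 and 13.9 at day 8. The 4 pair differences lay between -0.71 and -0.48 on the log2 scale. The mean was -0.55 (SE 0.0755, n = 4 pairs) with a limma adjusted p of 0.0646 over all genes tested and 0.0419 under the stricter filter, and the exact sign-flip p was 0.125. With the GC correction described further on it was -0.44 (adjusted p = 0.0682). The cap mesenchyme list as a whole was split: of 25 tested members, 8 were lower in all 4 pairs (Six2, Osr1, Cited1, Meox1, Meox2, Hoxa11, Crym and Gas1), 1 was higher in all 4 (Itga8), and none was called by limma, with 6 at an unadjusted p under 0.05. Of all genes tested, 18.1% were lower in all 4 pairs and 24.3% had an unadjusted p under 0.05, against 32.0% and 24.0% of the list. Their median difference was -0.20, against 0.002 for all genes tested.

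Cited1, a transcriptional co-regulator of the self-renewing progenitors, showed how unequal the pairs were. Its RPKM went from 99.2 to 79.3 without Heparin, from 94.1 to 73.7 without Y27632, from 6.36 to 2.76 without BMP7 and from 200 to 45.3 without CHIR. The day 4 level without BMP7 was thus already below that of every library of the other 3 components on either day. The mean difference was -0.94 (SE 0.314, limma adjusted p = 0.155). Without CHIR, 19 of the 25 cap mesenchyme genes were lower at day 8, with a median of -0.6, whereas without Heparin 12 were lower and 13 higher, with a median of 0.08. Meox1, Crym and Cited1 had differences of -2.16, -2.34 and -2.11 without CHIR, but no cap mesenchyme gene passed the test of CHIR against the other 3 components, in which their limma adjusted p-values were 0.0592, 0.0643 and 0.113.

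Among genes of early nephron differentiation, 4 of 14 tested were higher in all 4 pairs (Wnt4, Jag1, Irx3 and Greb1) and 1 was lower (Fgf8), with none called by limma, 5 at an unadjusted p under 0.05 and a median of 0.20. The shares over all genes were 16.6% higher in all 4 pairs, 18.1% lower in all 4 and 24.3% at an unadjusted p under 0.05. Irx3 and Jag1 met the RPKM limit only with their day 8 values, so their part in the list's counts is a description. Wnt4, the ligand that drives the mesenchyme to become epithelium, had RPKM values of 1.54, 0.881, 1.35 and 1.03 at day 4 and 3.86, 2, 1.97 and 1.89 at day 8 without Heparin, Y27632, BMP7 and CHIR. Its days did not overlap, and the difference was 0.62 (SE 0.131, limma adjusted p = 0.0827). Fgf8, a growth factor of the differentiating vesicle, was at 5.41, 4.5, 12.4 and 4.66 at day 4 and at 3.28, 1.63, 7.02 and 0.388 at day 8. Its difference was -1.10 (SE 0.252, limma adjusted p = 0.0898). Lhx1, which follows Wnt4 in the vesicle, was listed at 0 in all 8 libraries, and Pax8 was at 4.58 to 24.4 at day 4 and 2.55 to 22.8 at day 8.

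Transcripts that beta-catenin signalling is known to induce had a median above 0 in every medium, at low levels. Of 10 tested members, 6 were higher in all 4 pairs (Axin2, Tcf7, Tnfrsf19, Znrf3, Ccnd1 and Apcdd1) and none was lower in all 4, beside 16.6% and 18.1% of all genes. The list's median difference was 0.43, and the medians of the single pairs were 0.25 without Heparin, 0.32 without Y27632, 0.79 without BMP7 and 0.40 without CHIR. Axin2, which feeds back on the pathway by scaffolding beta-catenin destruction, was at 2.88, 2.18, 1.74 and 0.933 at day 4 and at 6.34, 5.56, 5.41 and 1.74 at day 8. In each pair the day 8 library was the higher one, and the library without CHIR was the lowest of its day on both days. The difference of Axin2 was 0.92 (SE 0.142), with a limma adjusted p of 0.0657 and of 0.0419 under the stricter filter. Axin2 met the stricter filter through day 8 alone, the day on which it was higher. Its p under that filter therefore gives no support for a rise. Znrf3, a ubiquitin ligase that removes Wnt receptors, was at 1.11, 1.27, 1.17 and 1.19 at day 4 and at 2.53, 2.4, 2.64 and 1.79 at day 8, with a difference of 0.61 (SE 0.115, adjusted p = 0.0734, and 0.0457 under the stricter filter). Tcf7, a DNA-binding partner of beta-catenin, went from 8.54 to 16.8, from 12.3 to 19.2, from 13.4 to 29.2 and from 5.94 to 7.62.

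Targets of BMP signalling had a median of the same sign, less evenly across media. Of 11 tested members, 4 were higher in all 4 pairs (Id2, Smad6, Smad9 and Atoh8), none was lower in all 4 and none was called by limma, with 4 at an unadjusted p under 0.05. Over all genes the shares were 16.6% higher in all 4 pairs, 18.1% lower in all 4 and 24.3% at an unadjusted p under 0.05. Smad9 met the RPKM limit only with its day 8 values, so its part in the list's counts is a description. The median was 0.46 over the list, with pair medians of 0.06 without Heparin, 0.05 without Y27632, 0.83 without BMP7 and 0.94 without CHIR. Id2, an inhibitor of basic helix-loop-helix factors, was at 237, 169, 24.8 and 126 at day 4 and at 384, 315, 133 and 242 at day 8. The library without BMP7 was the lowest of its day on both days and had the widest step, 2.37 on the log2 scale. The mean difference was 1.23 (SE 0.289, limma adjusted p = 0.0948), and Id2 was at 524 without LIF. Nog, which binds and blocks BMPs, moved in opposite directions, with differences of -0.80 and -0.96 without Heparin and Y27632 and of 0.89 and 0.80 without BMP7 and CHIR.

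Feedback genes of FGF and ERK signalling were divided. Of 16 tested members, 5 were higher in all 4 pairs (Dusp5, Etv5, Spred1, Spred2 and Il17rd) and 4 were lower in all 4 (Spry2, Spry4, Dusp6 and Ier3), beside 16.6% and 18.1% of all genes. Spry4, an inhibitor of receptor tyrosine kinase signalling, was at 19.8, 30.5, 44.3 and 60.6 at day 4 and at 13.2, 13.4, 23.9 and 38.2 at day 8. Its difference was -0.80 (SE 0.113, limma adjusted p = 0.0646, and 0.0419 under the stricter filter). Spred2, which acts as an inhibitor of the same pathway, was at 3.51, 4.42, 4.54 and 3.99 at day 4 and at 6.81, 7.54, 6.88 and 6.17 at day 8. Its days did not overlap, with a difference of 0.62 (SE 0.0925) and the same pair of adjusted p-values, 0.0646 and 0.0419. Thus Spry2 and Spry4 were lower, and Spred1 and Spred2 higher, in every pair.

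**Figure D2:**
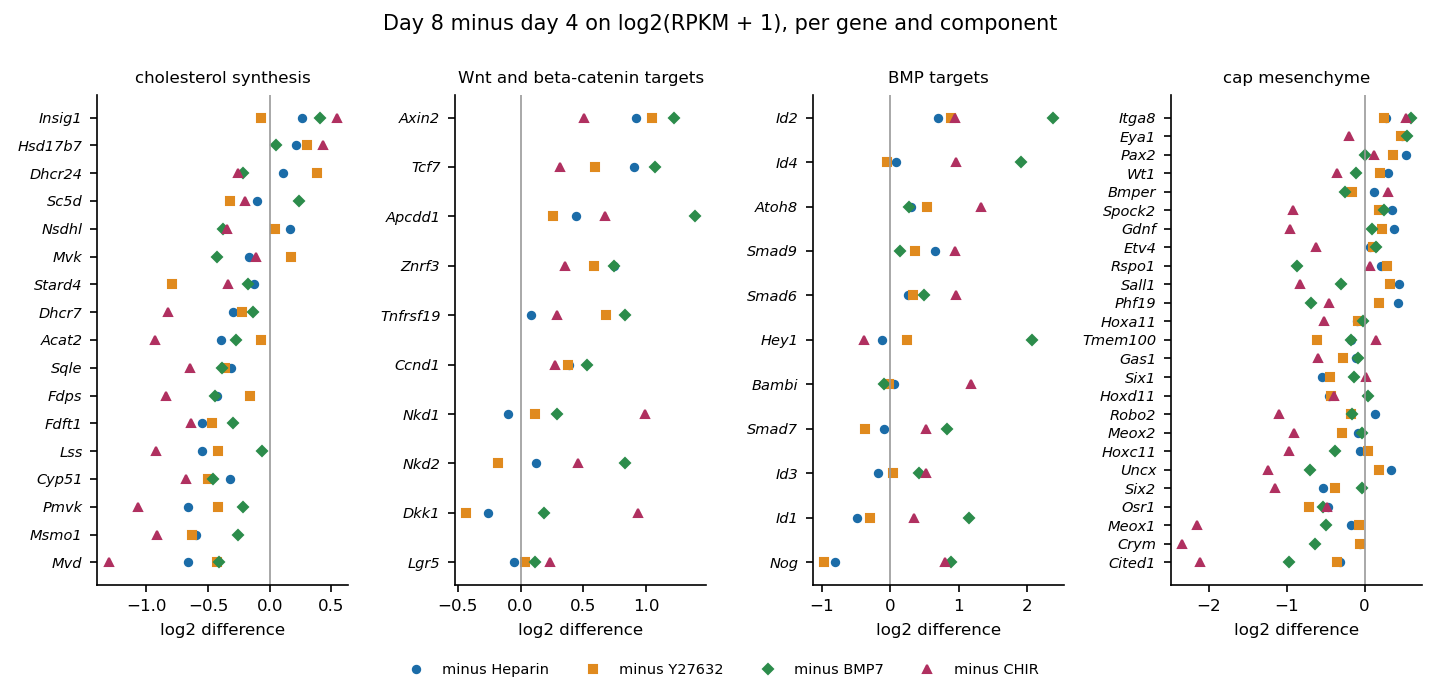
Day 8 minus day 4 on log2(RPKM + 1) for tested genes of 4 lists, with 1 point per component. In the cholesterol synthesis panel, which draws 17 of the 19 tested genes, 11 have all 4 points below 0, in the Wnt panel 6 of 10 have all 4 above 0, and in the cap mesenchyme panel the points furthest to the left are those without CHIR.

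Cholesterol synthesis was, of the 35 lists, the one with the most members of one sign in all 4 pairs. Of 19 tested genes, 12 were lower in all 4 pairs, from Mvd in the early part of the pathway to Cyp51, Msmo1 and Dhcr7 near its end, and 1 was higher (Hsd17b7). None was called by limma over all genes, 14 had an unadjusted p under 0.05, and 3 (Fdft1, Cyp51 and Msmo1) passed under the stricter filter. Of all genes tested, 18.1% were lower in all 4 pairs, 24.3% had an unadjusted p under 0.05 and 3.62% passed under the stricter filter. The list's median difference was -0.37, with pair medians of -0.30 without Heparin, -0.32 without Y27632, -0.22 without BMP7 and -0.64 without CHIR. Cyp51, the lanosterol demethylase, was at 53.3, 73, 56.8 and 60.8 at day 4 and at 42.5, 51.2, 41 and 37.6 at day 8. Its days did not overlap, and its difference was -0.49 (SE 0.0808, limma adjusted p = 0.0657, and 0.0444 under the stricter filter). Mvd, the mevalonate diphosphate decarboxylase, went from 103 to 64.7, from 117 to 86.3, from 79.1 to 59.2 and from 100 to 39.8, with a difference of -0.70 (SE 0.165, adjusted p = 0.0935). Insig1, which restrains the pathway, had a mean RPKM of 50.5 at day 4 and 61.2 at day 8. The day 8 library without LIF lay below all 8 others for Cyp51, Fdft1, Sqle and Mvd, at 30.2, 31, 40.5 and 39.1.

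Promoters of 3 cholesterol genes that were lower in all 4 pairs are shown because they share a short element. Each runs from 250 bases before to 50 after the RefSeq start on the gene's own strand (GRCm38.p6), and capitals mark CCAAT on either strand, where the reverse strand reads ATTGG. Cyp51 is at chr5:4104648-4104947, Mvd at chr8:122443373-122443672 and Msmo1 at chr8:64733529-64733828, all on the minus strand.
Cyp51: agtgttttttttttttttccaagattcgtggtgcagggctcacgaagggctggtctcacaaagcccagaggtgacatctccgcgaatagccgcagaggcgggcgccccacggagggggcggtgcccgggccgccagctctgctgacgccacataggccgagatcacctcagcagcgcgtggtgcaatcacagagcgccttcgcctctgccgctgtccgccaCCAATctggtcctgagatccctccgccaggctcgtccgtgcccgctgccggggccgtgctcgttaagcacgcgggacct
Mvd: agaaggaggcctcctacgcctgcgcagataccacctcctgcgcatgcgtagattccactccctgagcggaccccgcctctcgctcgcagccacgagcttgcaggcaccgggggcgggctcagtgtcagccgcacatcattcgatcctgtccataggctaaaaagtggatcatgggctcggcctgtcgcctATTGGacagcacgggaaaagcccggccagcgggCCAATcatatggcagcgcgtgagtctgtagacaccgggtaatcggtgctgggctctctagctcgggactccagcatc
Msmo1: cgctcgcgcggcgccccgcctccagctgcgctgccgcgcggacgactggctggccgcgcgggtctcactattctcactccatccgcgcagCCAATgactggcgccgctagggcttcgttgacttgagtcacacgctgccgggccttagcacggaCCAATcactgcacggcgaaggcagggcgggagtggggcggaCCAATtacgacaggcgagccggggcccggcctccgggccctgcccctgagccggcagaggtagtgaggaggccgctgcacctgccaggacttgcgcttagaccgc

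CCAAT was present in 11 of the 12 cholesterol genes that had a promoter sequence (91.7%), and in 3874 of 9029 promoters of all tested genes (42.9%). The matches began 29 bases before the start in Cyp51, 60 and 27 before it in Mvd, and 160, 96 and 55 before it in Msmo1. Of the 11, Mvd, Pmvk, Lss, Cyp51, Msmo1 and Dhcr7 were lower in all 4 pairs. Mvk, Nsdhl, Sc5d, Insig1 and Hsd17b7 were not. Over all 3874 genes with CCAAT the median difference was -0.009, against 0.009 for the 5155 without. The sterol element TCACCCCA was in 0 of the 12 and in 150 of 9029 promoters (1.66%). These motifs were chosen after the values of the list were seen, and a match is a description of the letters only.

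Arrdc4, an arrestin-domain protein that limits glucose uptake, had the largest difference among the 15 named higher genes other than the short RNAs and Id2. Its RPKM was 17.5, 13.2, 7.21 and 8.42 at day 4 and 35.7, 26.9, 22.3 and 18.1 at day 8 without Heparin, Y27632, BMP7 and CHIR. The days did not overlap, and the difference was 1.12 (SE 0.116, limma adjusted p = 0.0606, and 0.0318 under the stricter filter), while the library without LIF had 12.6. Its promoter, at chr7:68749189-68749488 on the minus strand, held 7 matches to CACGTG or CCAAT, shown in capitals. CACGTG, an E-box, was in 1078 of 9029 promoters (11.9%).
Arrdc4: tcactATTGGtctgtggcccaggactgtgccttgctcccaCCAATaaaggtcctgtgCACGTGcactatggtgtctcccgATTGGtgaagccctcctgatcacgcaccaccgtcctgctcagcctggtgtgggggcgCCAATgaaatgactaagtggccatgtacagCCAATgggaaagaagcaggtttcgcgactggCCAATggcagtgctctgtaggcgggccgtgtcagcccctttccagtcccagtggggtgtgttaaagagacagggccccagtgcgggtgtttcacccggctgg

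Cirbp, the cold-inducible RNA-binding protein, on chromosome 10 at 79628730 to 79635531 (mm9), was higher in all 4 pairs, by 0.71 to 1.00. It was at 87.8, 74.1, 89.5 and 91.6 at day 4 and at 177, 143, 157 and 150 at day 8, with 173 without LIF. The lowest day 8 library was well above the highest day 4 library, and the mean RPKM was 85.8 ± 7.9 (SD, n = 4) at day 4 and 157 ± 14.5 at day 8. The difference was 0.86 (SE 0.0772), with a limma adjusted p of 0.057 over all genes and 0.0271 under the stricter filter. Of the other named higher genes, Hnrnpdl, Qk, Rbm12, Trmt6 and Utp14b were higher in all 4 pairs with no overlap, by 0.65 to 0.87. Hnrnpdl, a paralogue of the hnRNP D proteins, went from 100 to 175, from 101 to 159, from 118 to 174 and from 100 to 150. In the mm9 annotation Utp14b overlaps Acsl3 and Rbm12 overlaps Cpne1, on the same strand in both cases, so their reads may be shared.

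By the naming rule, 15 genes were taken in each direction: the called ones first, then genes of one sign in all 4 pairs with a mean RPKM of at least 5, in order of their smallest pair difference. Because the rule used the sign and the size, their levels are a description. The higher genes not yet given are Snord57, a small nucleolar RNA within Nop56, which was listed at 0 in 3 of the 4 day 4 libraries, the membrane-bound ligand Efnb2, and Erbb2ip, Zbtb1 and Mgea5. Mgea5, which removes O-linked N-acetylglucosamine from proteins, was at 23.5, 22.8, 18.3 and 23.3 at day 4 and at 38.5, 33.9, 37.9 and 35.8 at day 8. Under the stricter filter 13 of the 15 had a limma adjusted p under 0.05, and all but 3 did not overlap between days. Over all genes, 1.17% were called higher under that filter, and for 4.15% every day 8 library lay above every day 4 library. The rule that chose the 15 favours both counts, so they are no support.

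Of the 15 lower genes, 10 did not overlap between days, where 4.58% of all genes tested had every day 8 library below every day 4 library. Tnfsf9, a ligand of the TNF family, was at 6.22, 12.9, 2.72 and 5.93 at day 4 and at 1.08, 1.27, 0.777 and 1.34 at day 8, a difference of -1.76 (SE 0.252, limma adjusted p = 0.0646, and 0.0419 under the stricter filter). Ppp1r3b, which targets protein phosphatase to glycogen, was at 22.7, 27.4, 18.7 and 28.6 and then at 9.98, 10.6, 5.38 and 13.7, a difference of -1.26 (SE 0.12, adjusted p = 0.0571, and 0.0271 under the stricter filter). Neither overlapped between days. Tnfsf9 met the stricter filter through day 4 alone, the day on which it was higher. Its p under that filter therefore gives no support for a fall. Eno2, an enolase, and Efna1, an ephrin, were lower by 1.21 and 0.85 and overlapped between days because the library without BMP7 was the lowest at day 4. Atg16l2, Snapc1, Zfyve21, Rpp25l, Pagr1a, Rem1 and Mir6958 complete the 15 with Rassf7, Banp, Mir214 and Dnm3os. Of the 15, 14 had a limma adjusted p under 0.05 with the stricter filter, under which 2.45% of all genes were called lower. The naming rule favours both counts, so they are no support.

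Mir214 and Dnm3os come from 1 locus. Dnm3os is a noncoding transcript on chromosome 1 at 164147754 to 164155681, plus strand (mm9), that is the host of miR-214 and miR-199a and lies antisense to Dnm3, so Mir214 and Dnm3os may share reads and are not independent. Mir214 was at 2609, 2397, 4555 and 4865 at day 4 and at 1302, 1051, 1871 and 1909 at day 8. Dnm3os was at 11.9, 14.3, 24.5 and 26.6 at day 4 and at 6.88, 5.96, 12.8 and 14.8 at day 8. Both had higher levels without BMP7 and CHIR than without Heparin and Y27632 on both days, and both were lower at day 8 in all 4 pairs. The difference was -1.21 (SE 0.0952, limma adjusted p = 0.0534) for Mir214 and -0.88 (SE 0.0954, adjusted p = 0.0606) for Dnm3os. Crabp1, a retinoic acid binding protein outside this locus, had a step of the same kind, from 197 to 127, 212 to 137, 1486 to 1025 and 658 to 389 (difference -0.64, SE 0.0714, adjusted p = 0.0606, and 0.038 under the stricter filter).

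**Figure D3:**
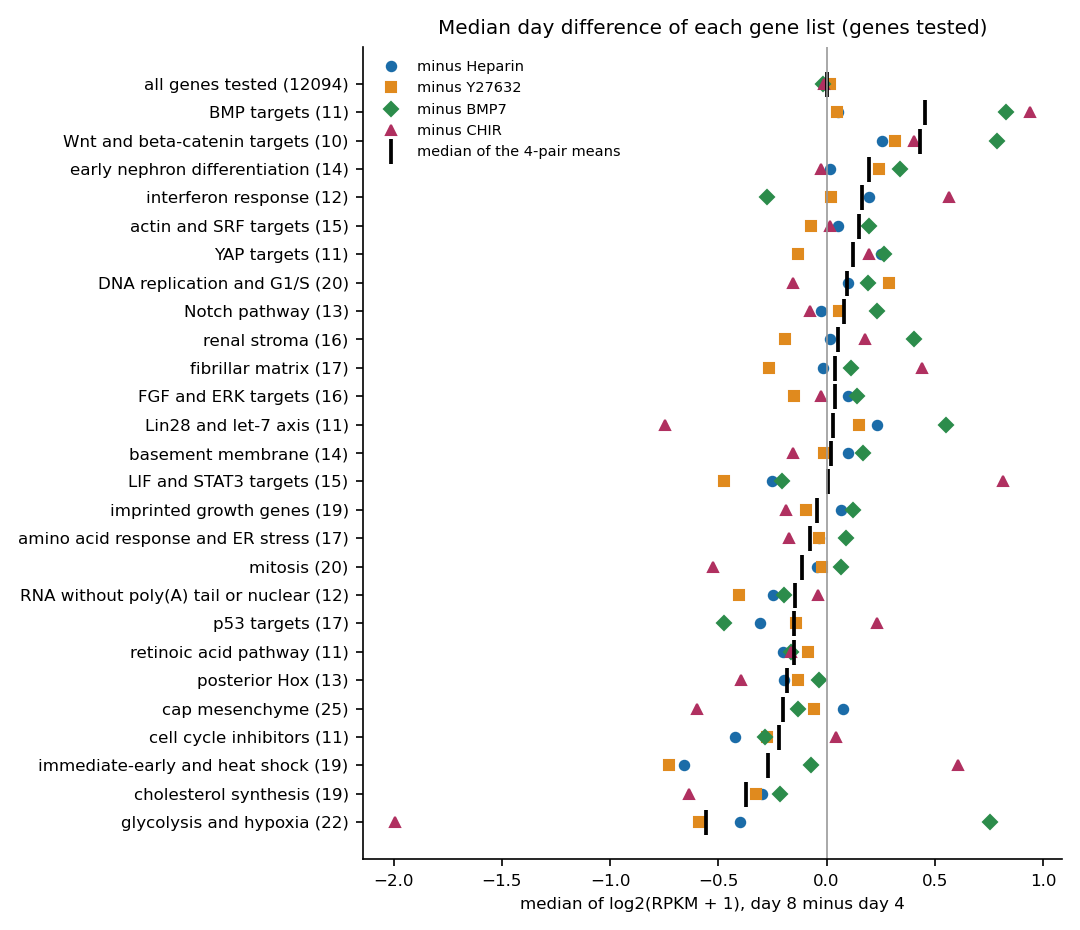
Median day difference on log2(RPKM + 1) for each list with at least 10 tested genes, with 1 point per component and a bar for the median of the mean differences. In 6 of the 27 lists, the cholesterol and Wnt lists among them, the points of all 4 components lie on 1 side of 0, while the glycolysis and hypoxia points run from -1.99 without CHIR to 0.76 without BMP7.

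Glycolysis and hypoxia genes had the lowest list median, -0.56, and at the same time the widest spread between components. All 22 tested members were lower at day 8 without CHIR (median -1.99), 21 were lower without Heparin (median -0.40), 19 were lower without Y27632 (median -0.59), and 21 were higher without BMP7 (median 0.76). Pgk1, a phosphoglycerate kinase, had an RPKM of 117, 140, 10.7 and 70.6 at day 4 and of 101, 115, 42.5 and 14.8 at day 8. The library without BMP7 was the lowest at day 4 and the library without CHIR the lowest at day 8. Slc2a1, the glucose transporter, was at 136, 313, 22.7 and 108 at day 4 and at 56.6, 103, 24 and 17.2 at day 8. Vegfa, the endothelial growth factor, was the 1 member lower in all 4 pairs, at 191, 236, 171 and 214 and then at 108, 89.5, 127 and 116. The days did not overlap for Vegfa, and its difference was -0.87 (SE 0.157, limma adjusted p = 0.0686, and 0.0452 under the stricter filter). The list median was 0.03 without the CHIR pair and -1.01 without the BMP7 pair, so its sign depended on the CHIR pair.

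Immediate-early and heat shock genes were also split by medium. All 19 were lower at day 8 without Y27632 and 17 without Heparin, with medians of -0.73 and -0.66, whereas 14 were higher without CHIR, with a median of 0.61. Jun, Hspa1a, Hspa1b and Dnajb1 were lower in all 4 pairs, none of them called by limma, and 7 of the 19 had an unadjusted p under 0.05. Over all genes 18.1% were lower in all 4 pairs and 24.3% had an unadjusted p under 0.05. Fos was at 314 at day 4 and 479 at day 8 without CHIR, and its differences were -0.91 and -1.04 without Heparin and Y27632. Hspa1a and Hspa1b are near-identical copies, and their values are uncertain for that reason. Hspa1a met the RPKM limit only with its day 4 values, so its part in the list's counts is a description.

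Cell cycle lists were split. Of 20 mitosis genes 5 were lower in all 4 pairs (Aurka, Plk1, Cdc20, Cenpe and Tpx2) and none was higher, and without CHIR all 20 were lower, with a median of -0.52. Of 20 genes of DNA replication and the G1/S step, 6 were higher in all 4 pairs (Mcm4, Mcm7, Pcna, Rrm1, Rrm2 and Pola1) and 1 was lower (Chaf1a). For both lists, the shares over all genes were 16.6% higher and 18.1% lower in all 4 pairs. Without CHIR 12 of the 20 replication genes were lower, with a median of -0.16, while 14, 19 and 17 were higher without Heparin, Y27632 and BMP7. Rrm2, the small subunit of ribonucleotide reductase, was at 103, 98.6, 58.4 and 74.3 at day 4 and at 138, 144, 79.4 and 107 at day 8. It was higher in every pair, by 0.48 (SE 0.0641, limma adjusted p = 0.0646, and 0.0419 under the stricter filter). Aurka, the spindle kinase, was at 71.6, 78.8, 51.7 and 58.3 and then at 54.5, 60.8, 40.1 and 28.4, a difference of -0.53 (SE 0.132, adjusted p = 0.1). Cdkn1a, the p53-induced cell cycle inhibitor, was at 121, 188, 184 and 110 at day 4 and at 64, 92.1, 90 and 108 at day 8. It was nearly level without CHIR, and its difference was -0.74 (SE 0.187, adjusted p = 0.102).

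Of the posterior Hox genes, which set the position of the kidney along the body, 5 of 13 tested were lower in all 4 pairs (Hoxa10, Hoxa11, Hoxc10, Hoxd10 and Hoxd12) and 1 was higher (Hoxd9), with a median of -0.18. For this list and those that follow, the shares over all genes were 18.1% lower and 16.6% higher in all 4 pairs. Of the amino acid response and ER stress genes, 4 of 17 were lower in all 4 (Trib3, Sesn2, Hspa5 and Herpud1) and 1 was higher. That gene, Slc7a5, imports large neutral amino acids and was at 15.6, 16.1, 27.9 and 9.46 at day 4 and at 26.1, 34.8, 37.1 and 21.4 at day 8, a difference of 0.82 (SE 0.137, limma adjusted p = 0.0657, and 0.0439 under the stricter filter). Notch pathway, YAP, actin, fibrillar matrix, basement membrane and imprinted gene lists had medians between -0.04 and 0.15, with 1 to 5 members of one sign in all 4 pairs. Over all 35 lists, 411 genes were tested and none was called in the limma fit of all genes, with 99 at an unadjusted p under 0.05 (24.1%, against 24.3% of all genes tested). Under the stricter filter 13 of 353 were called (3.68%, against 3.62% of all), and 30 of the 411 had an adjusted p under 0.10 (7.30%, against 7.98% of all). These shares were close to those of all genes, so the counts are no result about the listed genes.

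The size of the time step differed between media. A difference of at least 1 on the log2 scale, up or down, was seen in 96 and 134 genes without Heparin, in 48 and 161 without Y27632, in 160 and 101 without BMP7, and in 463 and 404 without CHIR. Across 12094 genes, which are not independent replicates, Spearman's rho between the day differences was 0.634 for Heparin and Y27632, 0.323 to 0.402 for each of these with BMP7 or CHIR, and 0.086 for BMP7 and CHIR. These pairs share no library. The pairs without BMP7 and without CHIR thus had little of their steps in common.

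Each component's day difference was tested against the mean of the other 3, in limma, with the lone difference assumed to vary like the others. CHIR differed in 59 of 12094 genes (0.488%), 48 higher and 11 lower, Y27632 in 1 (Mir7079, 0.00827%), and Heparin and BMP7 in none, with 143 and 717 genes at an unadjusted p under 0.05. The genes that were higher without CHIR include Saa3, Hp, Lcn2, Slc7a8 and Sfrp4, the 5 with the largest excess, and those that were lower include the carboxypeptidase gene Cpa1, Krt19, Car4 and Mir6972. With a pseudocount of 0.1 in place of 1 no gene passed for CHIR, with trimmed-mean factors 19 did, and with short RNAs left out 371 did. The calls of Mir7079 and Mir6972 rest on libraries listed at 0, so they are a description. Saa3, a serum amyloid protein, was at 3.18 at day 4 and 238 at day 8 without CHIR. It was at 2.91 and 3.21 without Heparin and at 2.79 and 1.4 without Y27632. Without BMP7 it was at 1642 at day 4 and at 1172 at day 8. The step was thus seen without CHIR, and the level without BMP7 was already above it at day 4. The excess of the CHIR step over the mean of the others was 6.18 (SE 0.357, limma adjusted p = 0.0339).

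Other genes had the same layout. Hp, haptoglobin, was at 4.37 and 96.5 without CHIR, at 164 on both days without BMP7, and between 0.499 and 1.55 in the other 4 libraries (excess 4.2, SE 0.221, adjusted p = 0.0339). Lcn2, a siderophore-binding protein, was listed at 0 at day 4 and at 9.6 at day 8 without CHIR, and at 25.1 and 24 without BMP7 (3.27, SE 0.236, adjusted p = 0.0339). Slc7a8, an amino acid transporter, was at 1.42 and 26.7 without CHIR and at 49.6 and 41.1 without BMP7 (3.46, SE 0.282, adjusted p = 0.0393). Sfrp4, a secreted Wnt inhibitor, differed from these, since it was at 6.35 and 54.2 without CHIR but at 2.97 and 1.47 without BMP7 (3.58, SE 0.223, adjusted p = 0.0339). Cxcl1, a chemokine chosen after its values were seen, was at 30.8 and 133 without CHIR, at 168 and 95.6 without BMP7 and between 25.9 and 44.8 in the other 4 libraries (2.72, SE 0.182, adjusted p = 0.0339). In the library without LIF at day 8, Saa3 was at 1.13, Hp at 0.324 and Lcn2 was listed at 0. Of 15 tested LIF and STAT3 targets, a list that holds Saa3 and Lcn2, 14 were higher at day 8 without CHIR, with a median of 0.81, and 13 were lower without BMP7, with a median of -0.21.

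**Figure D4:**
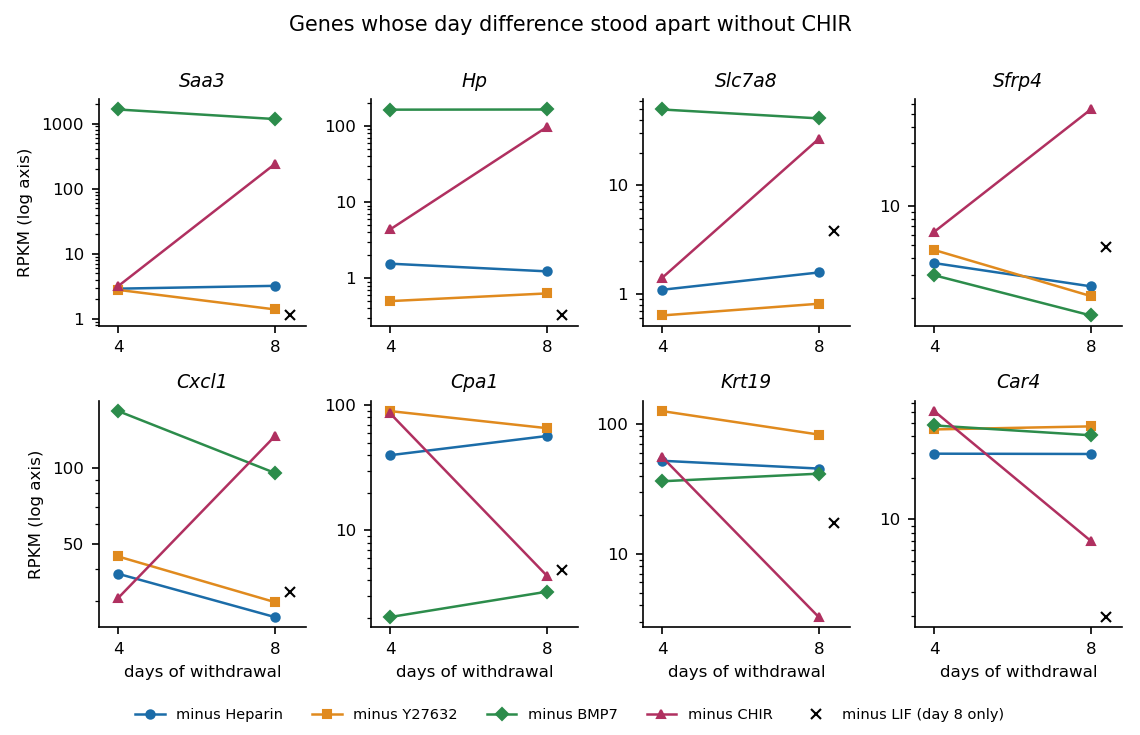
RPKM (log axis) against days of withdrawal for 8 genes whose day difference without CHIR differed from that of the other 3 components, with lines joining partner libraries and a cross for the library without LIF. Saa3, Hp and Slc7a8 went up without CHIR towards the level that was already present without BMP7 at day 4, Cxcl1 did so from a higher start, and Cpa1, Krt19 and Car4 went down.

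Of the genes that were lower without CHIR, Krt19, a keratin of simple epithelia, was at 55.4 at day 4 and 3.25 at day 8 without CHIR. Its levels were 51.9 and 45.2 without Heparin, 125 and 82.7 without Y27632 and 36.1 and 41.3 without BMP7, and 17.3 without LIF. The CHIR step was below the mean of the others by -3.53 (SE 0.367, limma adjusted p = 0.0495). Car4, a membrane carbonic anhydrase, was at 60.7 and 6.99 without CHIR and between 29.7 and 47.8 in the other 6 libraries (-2.89, SE 0.216, adjusted p = 0.0368). Without LIF Car4 was at 1.97, below the day 8 library without CHIR. Cpa1 went from 86.1 to 4.36 without CHIR, was at 2.03 and 3.23 without BMP7 and at 4.79 without LIF, and lay between 39.9 and 89.9 in the other 4 libraries (-4.2, SE 0.443, adjusted p = 0.0495). Mir6972 was listed at 310 and 0 without CHIR, at 303 and 322 without BMP7, and at 0 in the other 4 libraries (-8.31). Without Heparin and Y27632 its difference was 0 only because it was listed at 0 on both days. Its call therefore gives no support for a CHIR step. Epithelial markers in these cells were few, with 4 of 17 members tested, and their medians were -0.95 without CHIR and 0.25 without BMP7.

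GC content moved with the time step in all 4 media. Over 10909 tested genes with a transcript in GENCODE M1 (90.2%), Spearman's rho between the mean day difference and transcript GC content was -0.34. The median difference went from 0.11 in the lowest decile of GC content to -0.16 in the highest. The coefficient within single pairs lay between -0.291 and -0.192. The named higher genes had a median GC content of 45.3% and the named lower genes of 54.3%. With each gene's difference adjusted for GC content, all 11 higher and all 10 lower named genes with a GC value kept their direction. These genes were named for the sign and size of their differences, beside which the decile medians are small. Their kept direction is therefore no check on them. After the adjustment 6 of 10909 genes were called (Banp, Rassf7, Ppp1r3b, Snapc1, Zfyve21 and Cirbp). Without it 282 were called over the same genes.

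**Figure D5:**
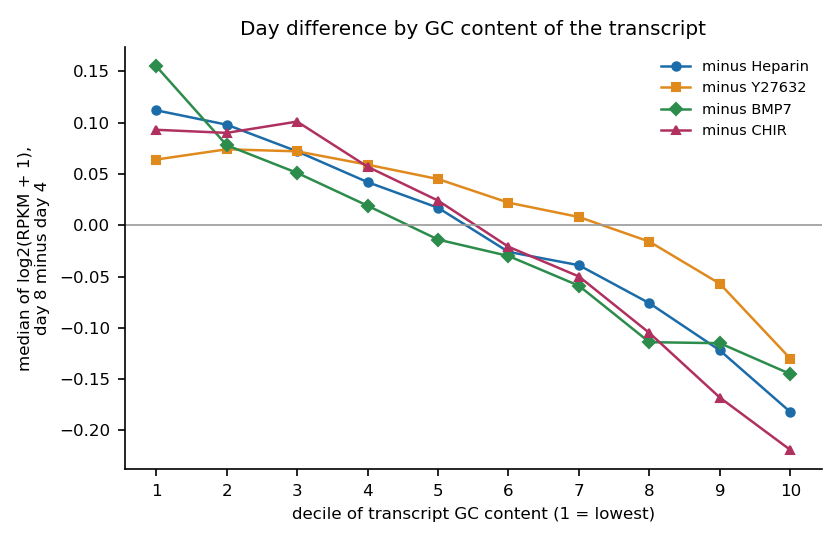
Median day difference on log2(RPKM + 1) in deciles of transcript GC content over the tested genes with a value, with 1 line per component. All 4 lines fall from above 0 at the lowest GC content to below 0 at the highest, from 0.09 to -0.22 without CHIR.

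The day 8 library without LIF, which no test used, was set beside the named genes. For 11 of the 15 higher genes and 11 of the 15 lower genes its value was nearer to the day 8 mean than to the day 4 mean (73.3% each), where this held for 2745 of 4197 genes of one sign in all 4 pairs (65.4%). It was nearer to the day 4 mean for Arrdc4, Utp14b, Efnb2 and Qk among the higher genes. The same held for Mir214, Atg16l2, Efna1 and Dnm3os among the lower genes. For Arrdc4 it was at 12.6, which is between the day 4 values. For Wnt4, which is in neither set of 15, it was at 0.544, below all day 4 values.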

How the data were processed

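RNA sequencing values of 8 withdrawal libraries, 4 per day, were analysed. The authors deposited 1 table of RPKM per gene symbol, with no read counts. The sources used here name no aligner, counting tool or genome build for these libraries; for the other 20 libraries STAR, Cufflinks and mm9 are named in the submitters' processing notes, without versions. Of 23947 lines, 2 with shifted values and 27 with symbols turned into dates were left out.

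The test was limma (version 3.58.1, R 4.3.3), two-sided, on log2(RPKM + 1) with a variance trend and the component as block. Benjamini-Hochberg adjustment ran over genes that reached an RPKM of 1 in 2 or more libraries. A log2 difference on this scale understates changes of low genes. The pairing comes from the labels, which name the component. Deviations from the day means correlated with r of 0.381, 0.456, 0.573 and 0.26 between the 2 libraries of Heparin, Y27632, BMP7 and CHIR. Between a day 4 library and the day 8 library of another component the highest r was 0.307, 0.437, 0.263 and -0.087, in the same order. Each component's difference was also tested against the mean of the other 3. The fits were tested on simulated data. No 2 libraries were duplicates, the highest Pearson correlation being 0.9822.

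Gene lists are described by counts and medians, with no set test. Named genes are the called ones by size, then, up to 15 per direction, genes of one sign in all 4 pairs with a mean RPKM of at least 5 in order of their smallest pair difference, with predicted and clone-named genes passed over, plus Six2, Osr1, up to 4 members per list and up to 5 called genes per direction and component; other list members are given as values chosen after they were seen. A few genes within the rule are left out here. The libraries compared and the lists were chosen with earlier results of these data known. Alternatives were other pseudocounts (0.1 and 5), filters, quantile and trimmed-mean scaling, no block, other priors, leaving out each pair and, added after seeing the data, leaving out short RNAs, a GC adjustment and an adjusted p of 0.10. Promoter and microRNA sequences are RefSeq's on GRCm38.p6; gene positions are from GENCODE M1 on mm9.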

Additional observations from a re-analysis of the deposited data

Results flagged for a closer look

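Within groups of 4 libraries, 10 of 72 tested sets had 1 library far from the other 3. The usual chance rate of about 1 in 20 assumes replicates of 1 condition. The 4 libraries of a day lack different components, so that rate is no yardstick here. The Heparin day 4 library stood apart by its estimated depth of 6.82 M reads. The library without BMP7 stood apart for Efnb2 on both days (RPKM 9.15 at day 4 and 15.4 at day 8), for Mir7019 (392) and Eno2 (7.89) at day 8, and for Hnrnpdl (118), Mgea5 (18.3) and Pagr1a (89.0) at day 4. The library without Y27632 stood apart for Snord57 at day 4 (722), and the library without CHIR for Trmt6 at day 8 (14.3).

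The day difference of 1 component differed from the mean of the other 3 in limma for 11 named genes. Without CHIR the excess on the log2(RPKM + 1) scale was 6.18 for Saa3, 4.20 for Hp, 3.58 for Sfrp4, 3.46 for Slc7a8, 3.27 for Lcn2 and 2.72 for Cxcl1. It was -8.31 for Mir6972, -4.20 for Cpa1, -3.53 for Krt19 and -2.89 for Car4. Without Y27632 it was 10.32 for Mir7079, which was listed at 0 at day 4 and at an RPKM of 449 at day 8. In the other 3 pairs Mir7079 was lower at day 8 than at day 4. The excess of Mir7079 rests on that listed 0, so it is a description. Mir6972 was listed at 0 on both days without Heparin and Y27632, so its excess is a description as well.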

How the results depend on the processing

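The count of 4 genes called between the days became 2 with log2(RPKM + 5), 2 with no filter on low values, 41 with trimmed-mean factors (6 higher, 35 lower), 158 with a robust prior (44 higher, 114 lower), 390 with the stricter filter, 305 without short RNAs, 282 over genes with a GC value and 965 at an adjusted p under 0.10. The last 3 were chosen after seeing the data. Of the fits without each pair in turn, none called Rassf7 or Banp. Each called Mir6910 and Mir7019, which were listed at 0 in all 4 day 4 libraries and met the filter through day 8 alone. The count in these fits was 2 to 3. Without the replicate block it was 5: the block changed the calls of Rassf7 (lost without it), Zfyve21 and Rpp25l, and no list member was called with or without it. Osr1, at -0.55, passed with the stricter filter (-0.5519, adjusted p = 0.0419), the robust prior (-0.5519, 0.0493), without short RNAs (-0.5519, 0.0463) and over genes with a GC value (-0.5519, 0.0473), but not over those same genes with the GC correction (-0.4422, 0.0682), all in limma. Six2 passed in none of the 17 settings. The list members called, 0 in all, became 13 with the stricter filter, 1 with trimmed-mean factors, 6 with the robust prior, 10 without short RNAs, 10 over genes with a GC value and 30 at an adjusted p under 0.10. For CHIR against the other 3, the 59 genes became 19 with trimmed-mean factors, 0 with log2(RPKM + 0.1), 128 with log2(RPKM + 5), 371 without short RNAs and 268 with the stricter filter. For Y27632 the 1 gene became 0 with quantile scaling, 0 with log2(RPKM + 0.1), 0 with log2(RPKM + 5), 0 without short RNAs and 2 with the stricter filter. The settings that change the genes tested change the variance trend and the adjustment by construction; for the others the cause was not tested.

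Each day and component has 1 library, depth is known only as an estimate, and the shallow Heparin day 4 library makes low values there less precise. Leaving out its pair could not change the direction of genes named for one sign in all 4 pairs, so it is no check on them.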
